A study of Drosophila melanogaster with 15 samples.

Results

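The 10 genes described here carry the Toll and IMD immune signals to the NF-kappaB transcription factors, and their RNA was measured in whole female flies after hypoxia. They are *spz*, *Tl*, *Myd88*, *cact*, *dl* and *Dif* of the Toll pathway and *imd*, *key*, *pirk* and *Rel* of the IMD pathway. They were chosen by name from a table of transcript abundance, in which they are 10 of 17031 genes and hold 39 of 33973 transcripts with a value. RNA-seq was carried out on 15 libraries, each made from whole-body RNA of 5 mated adult females about 7 days old. The groups were *foxo* mutants kept for 16 h in 1% oxygen (foxo hypoxia, 4 libraries), *foxo* mutants in ambient air (foxo normoxia, 4 libraries), w1118 females after the same hypoxia (w1118 hypoxia, 4 libraries) and w1118 females in ambient air (w1118 normoxia, 3 libraries, numbered 2 to 4). The mutants carried a null allele of *foxo*, which encodes a stress-regulated transcription factor, and w1118 was the control strain. Because whole animals were used, fewer cells of a type and less RNA per cell cannot be told apart.

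Toll and IMD are the main humoral immune pathways of *Drosophila*. In the Toll pathway the processed ligand Spatzle (*spz*) binds the receptor Toll (*Tl*), the adaptor *Myd88* passes the signal on, and loss of the inhibitor Cactus (*cact*) frees the NF-kappaB factors Dorsal (*dl*) and *Dif*, which enter the nucleus and switch on peptide genes such as *Drs* and the Bomanins. In the IMD pathway bacterial peptidoglycan acts through the adaptor *imd* and the IKK complex, of which *key* encodes the regulatory subunit, to activate the NF-kappaB factor Relish (*Rel*), while *pirk* dampens the pathway at its receptors. Much of this signaling works through cleavage, degradation and movement of proteins that a cell already holds, which RNA levels do not show. The Toll pathway from *spz* to *dl* also patterns the early embryo with products supplied by the mother.

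The values are TPM, which divide reads by transcript length and scale each library to one total. How many reads stand behind a value cannot be recovered from TPM, the sequencing depth is therefore unknown, and precision is judged from the spread between replicates alone. The *foxo* gene itself had 0.0145 to 0.257 TPM in the 8 mutant libraries, against 18.3 to 39.9 TPM in the 7 w1118 libraries. Some libraries stood apart over all genes. A median-of-ratios factor, which says how far the typical gene of a library lies above that gene in the other libraries, was 1.24 to 1.30 in foxo hypoxia replicate 4 and w1118 hypoxia replicates 2 and 4, but 0.719 in foxo hypoxia replicate 2 and 0.874 in w1118 hypoxia replicate 1. Dividing by this factor turned the median log2 change of all genes into 0.01 in place of 0.22 for hypoxia in w1118, and into 0.00 in place of -0.22 for *foxo* against w1118 in hypoxia. The share of called genes that were higher was then 43.6% in place of 62.2% for hypoxia in w1118, 61.1% in place of 40.9% for the difference between the hypoxia changes, 51.9% in place of 63.7% for *foxo* against w1118 in normoxia and 65.7% in place of 44.8% in hypoxia.

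In w1118 no single gene of the 10 passed the test for hypoxia. Most had a change above 0, but the median log2 change of all genes was above 0 as well (0.22). In *foxo* mutants *imd* rose. Between the genotypes, *Rel* was lower in *foxo* mutants in hypoxia. Changes were fitted with limma on log2(TPM + 1) over all 10288 genes that reached a mean of 1 TPM in a group, and a gene was called at a Benjamini-Hochberg adjusted p under 0.05. All 10 genes passed that filter.

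For hypoxia against normoxia in w1118, 0 of the 10 genes were called, where 16.2% of all genes tested were called up and 9.84% down, or 26% in either direction. Of the 10, 9 had a change above 0 (*spz*, *Myd88* and *Dif* lay below 0 after median-of-ratios scaling) and 3 (*imd*, *key* and *Rel*) had an unadjusted p under 0.05. Their median log2 change was 0.43, beside 0.22 for all genes. A test that aggregates the p-values of a gene's transcripts called 5 genes, *Tl*, *Myd88*, *dl*, *imd* and *Rel*, beside 2432 of 10288 with a change above 0. Such p-values carry no direction, which was taken from the gene total, and are treated as independent. For *Tl* they count 2 transcripts of equal values, and for *Myd88* they join a rise of 1.27 with a fall of -1.08. Leaving out w1118 hypoxia replicate 1 gave 4 genes called up (*Tl*, *dl*, *key* and *Rel*), beside 2395 of all 10325 genes tested. Leaving out foxo hypoxia replicate 4 gave 2 (*imd* and *key*), beside 2504 of 10285. Leaving out foxo hypoxia replicate 2 gave 1 (*imd*), beside 2123 of 10297. In w1118 the residuals of same-numbered normoxia and hypoxia libraries correlated at 0.142, 0.374 and 0.177, and those of differently numbered ones at -0.284 to 0.161. With replicate numbers as a block within w1118, an alternative chosen after seeing the data, 2 genes (*Tl* and *Rel*) and 10 transcripts were called up. Of all 10288 genes, 2146 were called up with that block, and counts over all transcripts were not made for it.

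For hypoxia against normoxia in *foxo* mutants, 1 of the 10 genes was called up and 0 down, where 9.34% of all genes were called up and 13.5% down, or 22.8% in either direction. The median log2 change of the 10 was 0.29, beside -0.04 for all genes. After median-of-ratios scaling 4 genes were called up (*cact*, *dl*, *imd* and *key*) and 1 down (*Myd88*), where of all 10278 genes 1716 were called up and 1666 down. Without foxo hypoxia replicate 4, *Myd88* was called down beside the rise of *imd*, where 1787 of all 10285 genes were called down.

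The difference between the 2 hypoxia changes was called for 0 of the 10 genes by limma, where 1.07% of all genes were called above 0, 1.55% below 0 and 2.61% in either direction. Of the 10, 1 (*Myd88*, -0.61 with a 95% interval of -1.16 to -0.05) had an unadjusted p under 0.05, and the aggregated test called it as well. The transcripts of *Myd88* went both ways here, with differences of -1.28, -0.38 and 0.67. For *foxo* against w1118 in normoxia limma called 0 of the 10 genes, where 5.52% of all genes were called up and 3.14% down, or 8.66% in either direction. In that comparison 2 genes, *Myd88* and *Dif*, had an unadjusted p under 0.05. The aggregated test called both and also *Rel*. The gene totals of *Myd88* and *Dif* lay above 0 and that of *Rel* below 0. The transcripts of *Rel* went both ways, as NM_206466.1 had a change of -1.76 and NM_206467.1 one of 0.87. For *foxo* against w1118 in hypoxia 0 of the 10 genes were called up and 1 down, where 7.65% of all genes were called up and 9.42% down, or 17.1% in either direction. The 1 call among the 10 genes is close to that background. Without foxo hypoxia replicate 4, 3 genes were called down (*Rel*, *key* and *cact*), without w1118 hypoxia replicate 1, 2 were (*Rel* and *key*), and without w1118 hypoxia replicate 2 or 4 or foxo hypoxia replicate 1, 2 or 3 there were 0. Over all genes, 3527 of 10285 were called down without foxo hypoxia replicate 4, and 1179 of 10325 without w1118 hypoxia replicate 1.

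**Figure D1:**
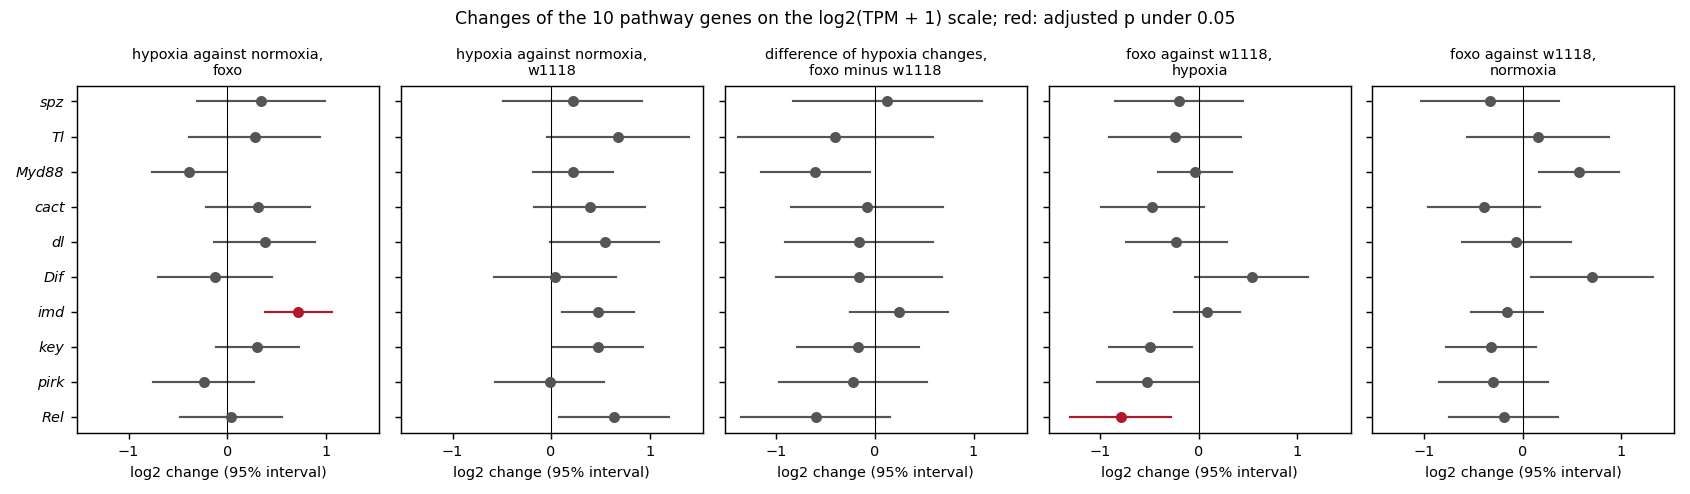
Log2 changes of the 10 genes on the log2(TPM + 1) scale (x axis, points) with 95% intervals (bars) in the 5 comparisons, and with genes ordered from the Toll ligand at the top to *Rel* at the bottom. Red marks an adjusted p under 0.05, which only *imd* for hypoxia in *foxo* mutants (0.72) and *Rel* for *foxo* against w1118 in hypoxia (-0.79) reached.

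The levels of the 10 genes spanned about an order of magnitude within each group. The inhibitor *cact* was highest in every group, with a mean of 107 ± 45.4 TPM in foxo hypoxia, 82.6 ± 17.0 in foxo normoxia, 144 ± 31.7 in w1118 hypoxia and 107 ± 4.97 in w1118 normoxia (SD, n = 4, 4, 4 and 3). *Dif* and *pirk* were the lowest pair in every group, with means of 5.32 to 9.82 TPM. The ranges of neighbours such as *key* and *Tl*, or *spz* and *imd*, overlapped in foxo hypoxia, foxo normoxia and w1118 hypoxia.

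**Figure D2:**
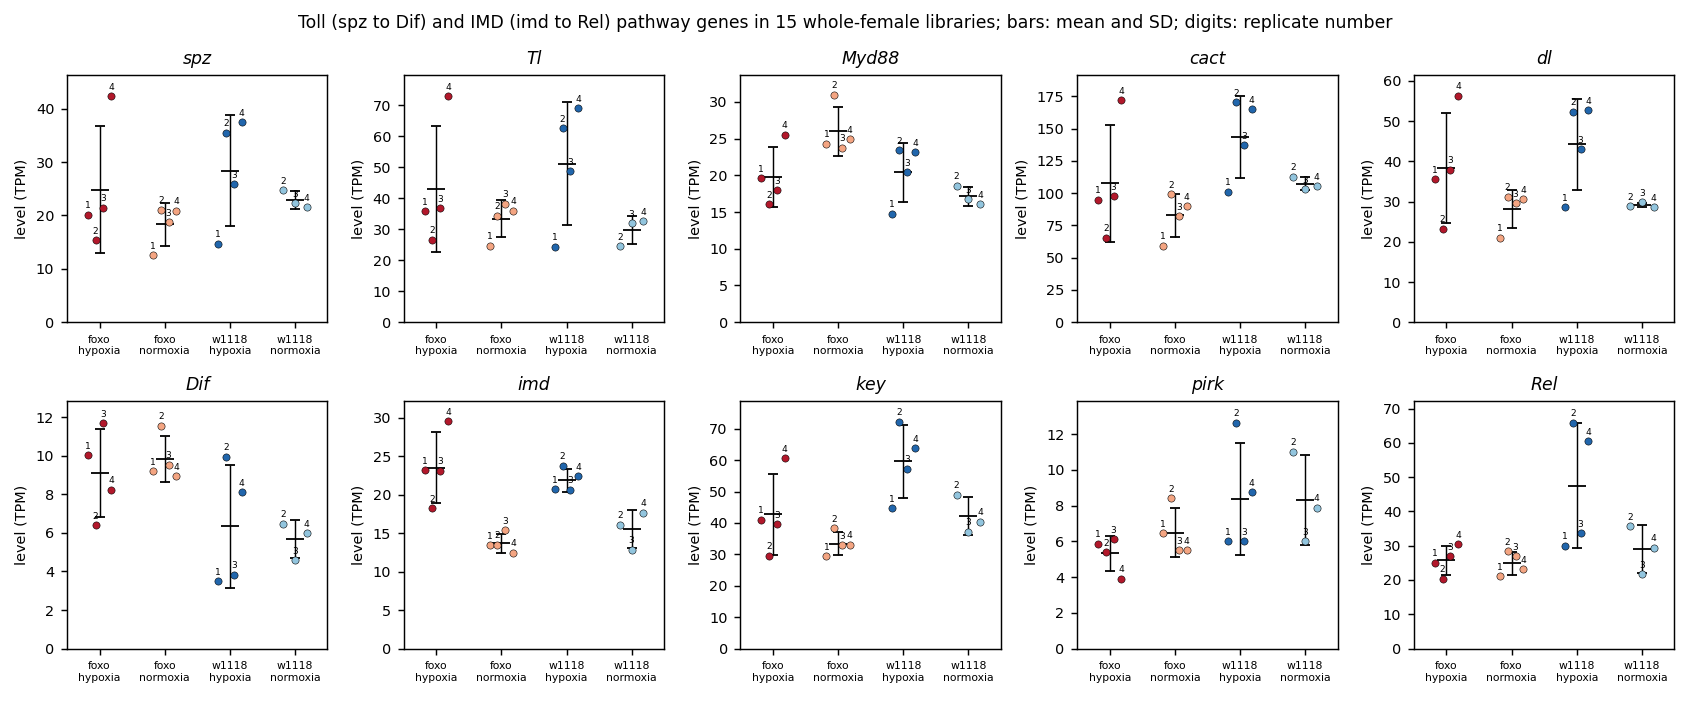
Level in TPM (y axis) of each gene in every library, by group, with replicate numbers beside the points and bars for the mean and SD. In foxo hypoxia replicate 4 is highest for *spz*, *Tl*, *Myd88*, *cact*, *dl*, *imd*, *key* and *Rel*, and in w1118 hypoxia replicates 2 and 4 lie above replicates 1 and 3 for all 10 genes.

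The genes moved together from library to library. In w1118 hypoxia replicate 1 all 10 genes lay below their group mean, by a median of 0.52 on the log2 scale, and in replicates 2 and 4 all 10 lay above it, by 0.34 and 0.26. In foxo hypoxia, replicate 4 had 8 genes above the group mean (median 0.46) and replicate 2 had 1 (median -0.45). These are the libraries whose median-of-ratios factor stood apart, so that the common movement of the 10 genes came with one of all genes. Its part in the results was not tested beyond the scaling given beside them.

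**Figure D3:**
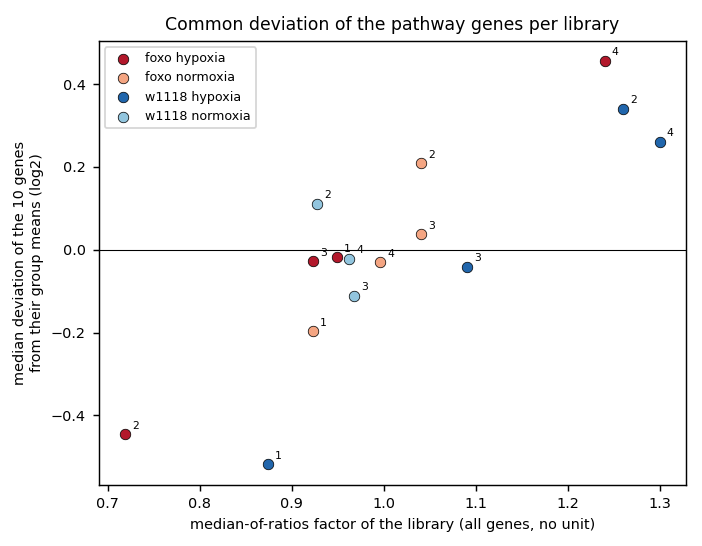
Median deviation of the 10 genes from their group means (y axis, log2) against the median-of-ratios factor of the library over all genes (x axis, no unit), with 1 point per library, coloured by group and marked with its replicate number. The libraries with factors of 1.24 to 1.30 lie at deviations of 0.26 to 0.46, and that with a factor of 0.719 lies at -0.45.

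The Toll ligand *spz* (FBgn0003495, chromosome 3R, 27064990 to 27070070, minus strand, dm6 coordinates, as for every gene here) was called by limma in none of the 5 comparisons. In order of replicate number it had 20.2, 15.4, 21.4 and 42.3 TPM in foxo hypoxia, against 12.6, 21.1, 18.8 and 20.9 TPM in foxo normoxia. In w1118 it had 14.7, 35.5, 25.9 and 37.5 TPM in hypoxia, against 24.8, 22.3 and 21.6 TPM in normoxia. The hypoxia libraries spread to both sides of the normoxia libraries in w1118, and the log2 change was 0.34 (95% interval -0.31 to 0.99) in *foxo* mutants and 0.22 (-0.48 to 0.92) in w1118. Of its 8 transcripts 5 passed the filter. One of these, NM_001144644.2, rose in *foxo* mutants, with 3.79, 2.53, 3.69 and 6.30 TPM in hypoxia, against 2.03, 2.58, 1.69 and 1.43 TPM in normoxia (log2 change 0.76, SE 0.24, limma adjusted p 0.0409). The groups overlapped by 1 library. That call was lost without w1118 normoxia replicate 2, 3 or 4, w1118 hypoxia replicate 3, foxo normoxia replicate 1, 3 or 4 or foxo hypoxia replicate 1, 3 or 4, at adjusted p of 0.0505 to 0.112.

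The receptor *Tl* (FBgn0262473, 3R, 26799041 to 26842403, plus strand) had 35.8, 26.7, 36.9 and 73.0 TPM in foxo hypoxia, against 24.7, 34.4, 38.3 and 36.0 TPM in foxo normoxia. It had 24.4, 62.7, 48.8 and 69.1 TPM in w1118 hypoxia, against 24.5, 32.0 and 32.6 TPM in w1118 normoxia. In w1118, 3 hypoxia libraries lay above every normoxia library and replicate 1 lay below them all. The log2 change was 0.68 in w1118 (SE 0.34, limma adjusted p 0.152) and 0.28 in *foxo* mutants (SE 0.31, adjusted p 0.596). With replicate numbers as a block within w1118 the change was 0.99 (adjusted p 0.0312), but there w1118 hypoxia replicate 1 has no partner and adds nothing to the estimate. Over 26 alternatives the w1118 change of *Tl* ran from 0.05 to 0.99, with adjusted p of 0.00905 to 0.808, and it passed in 4. Nearly all of the *Tl* signal was split evenly between NM_001276066.2 and NM_079794.3, which had equal values in all 15 libraries (within 0.1%), so that the RNA cannot be assigned to either. Another transcript, NM_170287.3, rose in w1118 to 0.262, 2.15, 1.34 and 1.65 TPM in hypoxia, against 0.0415, 0.282 and 0.126 TPM in normoxia (log2 change 0.96, SE 0.25, adjusted p 0.0119 by limma). Replicate 1 of hypoxia lay within the normoxia range of this transcript, and the call was lost without w1118 normoxia replicate 2 (adjusted p 0.0556).

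The adaptor *Myd88* (FBgn0033402, 2R, 9302823 to 9308722, minus strand), which links the receptor to the kinase Pelle, had 19.6, 16.1, 18.0 and 25.5 TPM in foxo hypoxia, against 24.3, 31.0, 23.8 and 24.9 TPM in foxo normoxia. In w1118 it had 14.8, 23.4, 20.4 and 23.1 TPM in hypoxia, against 18.6, 16.8 and 16.1 TPM in normoxia. The 4 foxo normoxia libraries lay above the 3 w1118 normoxia libraries with no overlap, while the hypoxia libraries of the 2 genotypes overlapped throughout. The log2 difference of *foxo* from w1118 was 0.57 in normoxia (SE 0.19, limma adjusted p 0.0854) and -0.04 in hypoxia (SE 0.18, adjusted p 0.882). The normoxia difference passed the test after median-of-ratios scaling (0.50, adjusted p 0.00627), with only the libraries compared (adjusted p 0.0136), and without w1118 hypoxia replicate 1 (0.0474) or foxo hypoxia replicate 4 (0.0392).

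The gene total of *Myd88* joined transcripts that changed in opposite directions in w1118. The transcript NM_136635.3 had 8.50, 7.40, 6.14 and 12.0 TPM in foxo hypoxia, against 7.77, 9.97, 7.64 and 8.15 TPM in foxo normoxia. It had 11.6, 16.5, 15.7 and 14.6 TPM in w1118 hypoxia, against 5.04, 7.35 and 4.23 TPM in w1118 normoxia. It thus rose in w1118 with no overlap between the groups (log2 change 1.27, SE 0.23, limma adjusted p 9.13e-04), and this held under all 23 alternatives. Here 14.8% of all transcripts tested were called up and 8.72% down, or 23.5% in either direction, and 4 of the 31 tested transcripts of the 10 genes were called up and 1 down. Of those called up there were 11 without w1118 hypoxia replicate 1, 7 without foxo hypoxia replicate 4 and 2 without w1118 normoxia replicate 2. Counts over all transcripts were not made for these fits. In *foxo* mutants the groups of NM_136635.3 overlapped, with a change of -0.01 (95% interval -0.45 to 0.44).

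The difference between the 2 hypoxia changes of NM_136635.3 was -1.28 (SE 0.31, limma adjusted p 0.0423). It was the only one called among the 31 transcripts, where 0.801% of all transcripts were called above 0, 1.48% below 0 and 2.28% in either direction. Without w1118 hypoxia replicate 1, 3 of the transcripts were called below 0, where 235 of all 10325 genes were. Counts over all transcripts were not made for that fit. The call of NM_136635.3 was lost without a filter (adjusted p 0.0631), with the replicate block (0.0652) and without any one library except w1118 normoxia replicate 3, w1118 hypoxia replicate 1 and foxo hypoxia replicate 4 (0.0619 to 0.123). In hypoxia the transcript was lower in *foxo* mutants by 0.74 on the log2 scale (limma adjusted p 0.0272), and that call was lost without w1118 hypoxia replicate 2, 3 or 4 or foxo hypoxia replicate 1, 2 or 3 (0.0574 to 0.0978).

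The other *Myd88* transcripts had changes below 0 with hypoxia in both genotypes. NM_001299317.1 had 7.63, 6.31, 8.57 and 9.71 TPM in foxo hypoxia, against 9.09, 14.99, 8.99 and 11.3 TPM in foxo normoxia. It had 1.76, 3.85, 2.77 and 5.48 TPM in w1118 hypoxia, against 10.3, 6.10 and 7.95 TPM in w1118 normoxia. It fell in w1118 with no overlap (-1.08, SE 0.28, limma adjusted p 0.0116, 0.0717 without w1118 normoxia replicate 2), and it was higher in *foxo* mutants than in w1118 in hypoxia, again with no overlap (1.08, SE 0.26, adjusted p 0.0098, held under all 22 alternatives). Its hypoxia change in *foxo* mutants was -0.40 (limma adjusted p 0.329), and the 2 changes differed by 0.67 (95% interval -0.13 to 1.48, adjusted p 0.427). NM_001273892.1 fell in *foxo* mutants to 3.501, 2.41, 3.26 and 3.76 TPM in hypoxia, against 7.44, 6.03, 7.14 and 5.45 TPM in normoxia (-0.83, SE 0.20, limma adjusted p 0.00916). In w1118 its change was -0.45 (adjusted p 0.152), or -0.62 (0.00884) after median-of-ratios scaling, and the 2 changes differed by -0.38 (95% interval -1.02 to 0.25, adjusted p 0.573). In *foxo* mutants 3 of the 31 transcripts were called up and 1 down, where 6.54% and 10.9% of all transcripts were, or 17.4% in either direction. NM_001273892.1 was also higher in *foxo* mutants than in w1118 in normoxia, where w1118 had 3.196, 3.33 and 3.93 TPM and the groups did not overlap (0.74, SE 0.22, limma adjusted p 0.0471). It kept that call in 8 of 22 alternatives, and lost it without w1118 normoxia replicate 2, 3 or 4, w1118 hypoxia replicate 3, foxo normoxia replicate 1, 2, 3 or 4 or foxo hypoxia replicate 1 or 3 (0.0506 to 0.16).

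As a share of the gene, NM_136635.3 made up 42.6 ± 5.88% in foxo hypoxia, 32.3 ± 0.355% in foxo normoxia, 72.3 ± 7.04% in w1118 hypoxia and 32.4 ± 9.89% in w1118 normoxia (SD, n = 4, 4, 4 and 3). A share within a gene does not depend on how a library is scaled, but whether it moves with transcript length was not tested. The lowest library of w1118 hypoxia (63.1%) lay above the highest of the other groups (47.2%). The annotation holds 3 *Myd88* transcripts, with 2 start sites and 2 ends, but the sources used here do not pair them with these accessions, and kallisto divides reads that fit several transcripts by estimate.

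**Figure D4:**
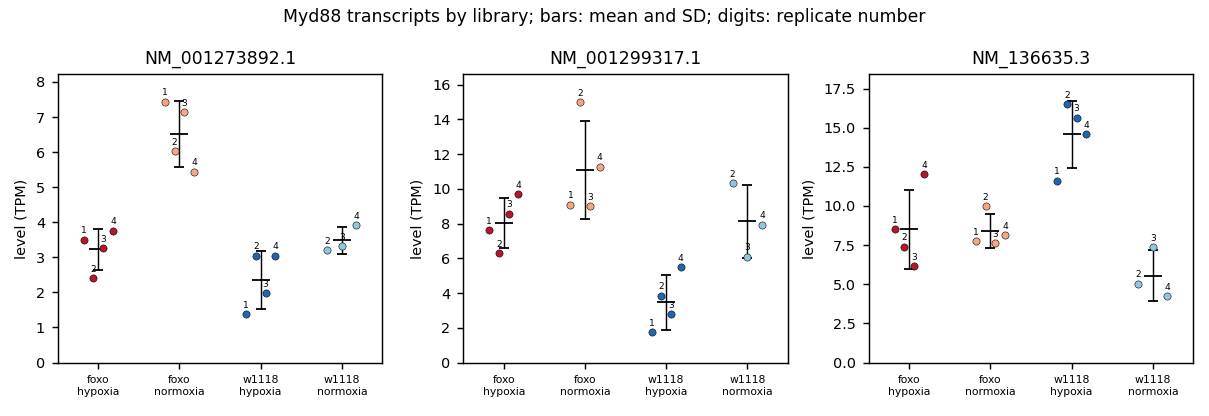
Level in TPM (y axis) of the 3 *Myd88* transcripts in every library, by group, with replicate numbers beside the points and bars for the mean and SD. NM_136635.3 is higher in all w1118 hypoxia libraries (11.6 to 16.5 TPM) than in the w1118 normoxia libraries (4.23 to 7.35 TPM), and NM_001299317.1 is lower (1.76 to 5.48 against 6.10 to 10.3 TPM).

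The inhibitor *cact* (FBgn0000250, 2L, 16313036 to 16326207, minus strand), which holds Dorsal and Dif in the cytoplasm, had 94.8, 65.5, 97.5 and 172 TPM in foxo hypoxia, against 59.4, 99.2, 82.1 and 89.9 TPM in foxo normoxia. It had 101, 170, 137 and 165 TPM in w1118 hypoxia, against 113, 103 and 106 TPM in w1118 normoxia. The groups overlapped within each genotype, and the log2 change was 0.31 (SE 0.25, limma adjusted p 0.419) in *foxo* mutants and 0.39 (SE 0.27, adjusted p 0.291) in w1118. All foxo normoxia libraries lay below the w1118 normoxia libraries, at a difference of -0.39 that did not pass (adjusted p 0.458). After median-of-ratios scaling the rise in *foxo* mutants was 0.40 (adjusted p 0.0405). The w1118 change ran from -0.06 to 0.55 over 26 alternatives and passed in 0. Of *cact* RNA, 82.3% or more in every library was the transcript NM_057594.4.

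The NF-kappaB factor *dl* (FBgn0260632, 2L, 17436830 to 17450364, minus strand) had 35.6, 23.3, 37.9 and 56.3 TPM in foxo hypoxia, against 21.0, 31.2, 29.6 and 30.6 TPM in foxo normoxia. It had 28.7, 52.3, 43.0 and 52.8 TPM in w1118 hypoxia, against 28.9, 29.8 and 28.7 TPM in w1118 normoxia. In each genotype 3 hypoxia libraries lay above all normoxia libraries and 1 did not. The log2 change was 0.38 (SE 0.24, limma adjusted p 0.292) in *foxo* mutants and 0.55 (SE 0.26, adjusted p 0.134) in w1118, and the value in *foxo* mutants was 0.46 (adjusted p 0.00988) after median-of-ratios scaling. The w1118 change ran from 0.09 to 0.73 over 26 alternatives and passed in 2.

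The second Toll factor, *Dif* (FBgn0011274, 2L, 17413248 to 17433161, minus strand), which lies next to *dl* and serves adult immunity, had 10.1, 6.39, 11.7 and 8.25 TPM in foxo hypoxia, against 9.22, 11.6, 9.55 and 8.95 TPM in foxo normoxia. It had 3.48, 9.96, 3.84 and 8.12 TPM in w1118 hypoxia, against 6.49, 4.57 and 5.995 TPM in w1118 normoxia. *Dif* was thus one of the genes with no sign of a hypoxia change (-0.12, 95% interval -0.70 to 0.45, in *foxo* mutants and 0.04, -0.58 to 0.66, in w1118), while the foxo normoxia libraries all lay above the w1118 normoxia libraries. The normoxia difference of 0.70 (SE 0.29) had a limma adjusted p of 0.181, and 0.0124 with only the libraries compared. In hypoxia it was 0.54 (adjusted p 0.187), and 0.76 (adjusted p 0.0245) after median-of-ratios scaling.

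All 4 *Dif* transcripts passed the filter and 1 was called in each genotype comparison. NM_001169528.1 was higher in *foxo* mutants in normoxia, with 1.74, 3.81, 2.11 and 2.08 TPM against 0.883, 0.310 and 1.53 TPM in w1118 (0.86, SE 0.26, limma adjusted p 0.0469). NM_078865.4 was higher in *foxo* mutants in hypoxia, with 3.94, 2.21, 6.60 and 1.29 TPM against 0.808, 0.832, 0.596 and 1.55 TPM in w1118 (1.09, SE 0.32, limma adjusted p 0.0333). The second pair of groups overlapped by 1 library. The first call was kept in 7 of 21 alternatives and was lost without any one library except w1118 normoxia replicate 4, w1118 hypoxia replicates 1 and 2 and foxo hypoxia replicate 4 (0.0516 to 0.225). The second was kept in 14 of 21, and was lost without w1118 hypoxia replicate 1, 2 or 3 or foxo hypoxia replicate 1 or 3 (0.0561 to 0.112). In normoxia 2 of the 31 transcripts were called higher and 1 lower in *foxo* mutants, where 5.54% and 3.22% of all transcripts were, or 8.76% in either direction. In hypoxia 2 were called higher and 3 lower, where 6.05% and 8.19% of all were, or 14.2% in either direction. The 3 lower became 9 without foxo hypoxia replicate 4, 6 without w1118 hypoxia replicate 1, and 1 without w1118 hypoxia replicate 2 or 4 or foxo hypoxia replicate 2. Counts over all transcripts were not made for these fits.

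Ratios within a library do not depend on its scaling. Whether they move with transcript length was not tested. The slope of log2(TPM + 1) on log2 length over genes ran from -0.186 in foxo hypoxia replicate 2 to 0.0713 in w1118 hypoxia replicate 4. The longest transcript has 2356 bases for *cact* and 4724 for *dl*, and 1846 for *pirk* and 3499 for *Rel*. The ratio of *cact* to *dl* was 2.66, 2.81, 2.57 and 3.05 in foxo hypoxia, against 3.53, 3.25, 3.19 and 3.13 in w1118 hypoxia. In normoxia it was 2.83, 3.18, 2.77 and 2.94 in *foxo* mutants, against 3.90, 3.46 and 3.68 in w1118. In both conditions every *foxo* library lay below every w1118 library, and no test was made of it. The ratio of *Dif* to *dl* was 0.253 ± 0.0725 in foxo hypoxia, 0.356 ± 0.0638 in foxo normoxia, 0.139 ± 0.0433 in w1118 hypoxia and 0.196 ± 0.0374 in w1118 normoxia (SD, n = 4, 4, 4 and 3), without overlap between the genotypes in normoxia (0.293 to 0.439 against 0.153 to 0.224).

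In the IMD pathway, the adaptor *imd* (FBgn0013983, 2R, 18409796 to 18413599, minus strand) was the gene that changed most clearly with hypoxia. It had 23.2, 18.2, 23.1 and 29.5 TPM in foxo hypoxia, against 13.5, 13.5, 15.4 and 12.5 TPM in foxo normoxia. In w1118 it had 20.7, 23.7, 20.6 and 22.4 TPM in hypoxia, against 16.1, 12.9 and 17.6 TPM in normoxia. In both genotypes every hypoxia library lay above every normoxia library. The log2 change was 0.72 in *foxo* mutants (SE 0.16, limma adjusted p 0.00355), and it held under all 25 alternatives (0.60 to 0.83). In w1118 it was 0.48 (SE 0.17, adjusted p 0.0524), with adjusted p of 0.0188 to 0.205 over 26 alternatives. The changes of the 2 genotypes differed by 0.24 (95% interval -0.25 to 0.74, limma adjusted p 0.668). Nearly all of the RNA was the transcript NM_133166.4 (98.97% or more in every library), which was called with the gene in *foxo* mutants (0.71, limma adjusted p 0.00526).

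*imd* shares 40 of its 1518 exon bases (2.6%) with *GstE9* on the opposite strand. *GstE9*, a glutathione S-transferase gene, rose in *foxo* mutants by 1.93 on the log2 scale (limma adjusted p 8.43e-05) and had a change of 0.19 in w1118 (adjusted p 0.655). The kit keeps strand, but whether the authors' read assignment used it is not given in the sources used here, and the part of *GstE9* reads in the *imd* values was not tested. *key*, *cact* and *spz* share 29, 62 and 5 exon bases with *CG3589*, *fzy* and *CG43935* in the same manner. The largest such overlap was that of *Dif*, which shares 252 of its 5695 exon bases (4.4%) with *CG15141*. The part of reads from these neighbours in the values of the 4 genes, those of the *Dif* transcripts included, was not tested.

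The IKK subunit *key* (FBgn0041205, 2R, 24785514 to 24787411, minus strand) had 41.0, 29.6, 39.6 and 60.7 TPM in foxo hypoxia, against 29.3, 38.4, 33.0 and 33.1 TPM in foxo normoxia. It had 44.8, 72.3, 57.3 and 63.9 TPM in w1118 hypoxia, against 49.0, 37.2 and 40.4 TPM in w1118 normoxia. In both genotypes 3 hypoxia libraries lay above all normoxia libraries. The log2 change was 0.30 (SE 0.20, limma adjusted p 0.311) in *foxo* mutants and 0.48 (SE 0.21, adjusted p 0.113) in w1118. In hypoxia *key* was lower in *foxo* mutants by a value of -0.49 (SE 0.20, adjusted p 0.103), which passed without foxo hypoxia replicate 4 (-0.68, adjusted p 0.00825) and without w1118 hypoxia replicate 1 (-0.62, 0.0447).

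The inhibitor *pirk* (FBgn0034647, 2R, 21660967 to 21662995, minus strand), itself a target of Relish in feedback, had 5.88, 5.38, 6.12 and 3.91 TPM in foxo hypoxia, against 6.47, 8.40, 5.49 and 5.51 TPM in foxo normoxia. It had 6.01, 12.6, 6.01 and 8.74 TPM in w1118 hypoxia, against 11.02, 6.004 and 7.89 TPM in w1118 normoxia. The groups overlapped within each genotype. The log2 change was -0.24 (95% interval -0.75 to 0.27) in *foxo* mutants and -0.01 (-0.57 to 0.54) in w1118, with limma adjusted p of 0.541 and 0.974.

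Relish is the factor on which IMD signaling ends, and among the 10 gene totals *Rel* alone was called between the genotypes by limma with the settings used throughout. *Rel* (FBgn0014018, 3R, 9044183 to 9047977, minus strand) had 25.0, 20.4, 27.0 and 30.4 TPM in foxo hypoxia, against 30.0, 65.9, 33.7 and 60.6 TPM in w1118 hypoxia. In normoxia it had 21.2, 28.4, 27.0 and 23.1 TPM in *foxo* mutants, against 35.8, 21.8 and 29.4 TPM in w1118. Replicates 2 and 4 of w1118 hypoxia stood far above all other libraries, replicates 1 and 3 lay within the range of w1118 normoxia, and only 1 foxo hypoxia library (30.4 TPM) reached the lowest w1118 hypoxia library (30.0 TPM).

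In hypoxia *Rel* was lower in *foxo* mutants by a log2 difference of -0.79 (SE 0.24, limma adjusted p 0.0336), which was -0.55 (adjusted p 0.0391) after median-of-ratios scaling. Of 25 alternatives 18 kept the call. It was lost without a filter (adjusted p 0.0621), with only the libraries compared (0.11), and without w1118 hypoxia replicate 2 (-0.61, 0.101) or 4 (-0.65, 0.112) or foxo hypoxia replicate 1 (0.0753), 2 (0.0921) or 3 (0.0638). In normoxia the difference was -0.19 (95% interval -0.75 to 0.36, adjusted p 0.759).

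The hypoxia change of *Rel* was 0.04 in *foxo* mutants (95% interval -0.47 to 0.56, limma adjusted p 0.933) and 0.64 in w1118 (0.08 to 1.197, adjusted p 0.0832). The difference of the 2 changes was -0.60 (-1.36 to 0.16, adjusted p 0.523) and did not pass under any alternative. In w1118 the change passed with the replicate block over all groups (0.73, adjusted p 0.0392), with the block within w1118, in which replicate 1 of hypoxia adds nothing (0.83, 0.00584), and without that library (0.83, 0.0227). It passed in 4 of 26 alternatives, over which it ran from 0.26 to 0.83 at adjusted p of 0.00106 to 0.313.

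The ratio of *pirk* to *Rel* was 0.235, 0.263, 0.226 and 0.129 in foxo hypoxia, against 0.306, 0.296, 0.203 and 0.239 in foxo normoxia. In w1118 it was 0.200, 0.192, 0.178 and 0.144 in hypoxia, against 0.308, 0.276 and 0.268 in normoxia. The w1118 groups did not overlap and the *foxo* groups did, and no test was made of it.

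*Rel* has 4 annotated transcripts that start at 4 places and share one end, and all 4 accessions in the table passed the filter. The main one, NM_206465.1, was 62.4 ± 8.34% of the gene in foxo hypoxia, 64.9 ± 6.35% in foxo normoxia, 58.0 ± 5.82% in w1118 hypoxia and 74.2 ± 1.41% in w1118 normoxia (SD, n = 4, 4, 4 and 3). Its shares in w1118 did not overlap (53.0 to 63.4% in hypoxia, against 72.6 to 75.2% in normoxia).

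The transcript NM_206466.1 rose with hypoxia in both genotypes. It had 3.501, 0.984, 2.84 and 3.54 TPM in foxo hypoxia, against 0.00, 9.44e-05, 0.513 and 0.00881 TPM in foxo normoxia. It had 6.37, 13.5, 4.36 and 9.87 TPM in w1118 hypoxia, against 5.11, 2.20 and 1.71 TPM in w1118 normoxia. In foxo normoxia it was close to 0 in all 4 libraries, below every w1118 library. The hypoxia and normoxia groups overlapped by 1 library in w1118 but not in *foxo* mutants. NM_206467.1 had 5.27 to 9.09 TPM in foxo normoxia, against 2.98 to 4.90 TPM in w1118 normoxia (log2 difference 0.87, limma adjusted p 0.134). It had 4.56 to 9.06 TPM in foxo hypoxia, against 3.17 to 11.7 TPM in w1118 hypoxia. Its hypoxia change was -0.29 in *foxo* mutants (limma adjusted p 0.604) and 0.82 in w1118 (0.0916). The part of kallisto's estimated division of reads in the levels of NM_206466.1 and NM_206467.1 was not tested.

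The hypoxia change of NM_206466.1 was 1.67 (SE 0.35, limma adjusted p 0.00324) in *foxo* mutants, which held under all 22 alternatives, and 1.24 (SE 0.38, adjusted p 0.0264) in w1118. In w1118 it was lost without a filter (0.0707), at a pseudocount of 0.1 (0.114) and without w1118 normoxia replicate 3 or 4 or w1118 hypoxia replicate 2 or 4 (0.066 to 0.124). It was lower in *foxo* mutants than in w1118 by -1.76 in normoxia (SE 0.38, limma adjusted p 0.00797) and by -1.33 in hypoxia (SE 0.35, adjusted p 0.0168). The normoxia call was lost without w1118 normoxia replicate 2 (adjusted p 0.0554), or at a pseudocount of 5 (0.0696). The hypoxia call was lost without a filter (0.0501), at a pseudocount of 0.1 (0.0924) and without w1118 hypoxia replicate 2 or 4 or foxo hypoxia replicate 2 (0.052 to 0.0569).

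The minor transcript NM_057746.4 had 1.23, 1.11, 0.638 and 0.191 TPM in foxo hypoxia, against 0.884, 0.917, 1.64 and 0.771 TPM in foxo normoxia. It had 1.69, 5.80, 1.70 and 8.25 TPM in w1118 hypoxia, against 0.616, 0.788 and 0.793 TPM in w1118 normoxia. All w1118 hypoxia libraries lay above every other library. It rose in w1118 (1.42 on the log2 scale, SE 0.38, limma adjusted p 0.0132, 0.0527 without w1118 normoxia replicate 2) and was lower in *foxo* mutants in hypoxia (-1.41, SE 0.35, adjusted p 0.012, held under all 21 alternatives). The difference of its hypoxia changes was -1.64 (adjusted p 0.125), and passed without w1118 hypoxia replicate 1 (-1.90, 0.0428) and with the block within w1118 (0.0364).

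**Figure D5:**
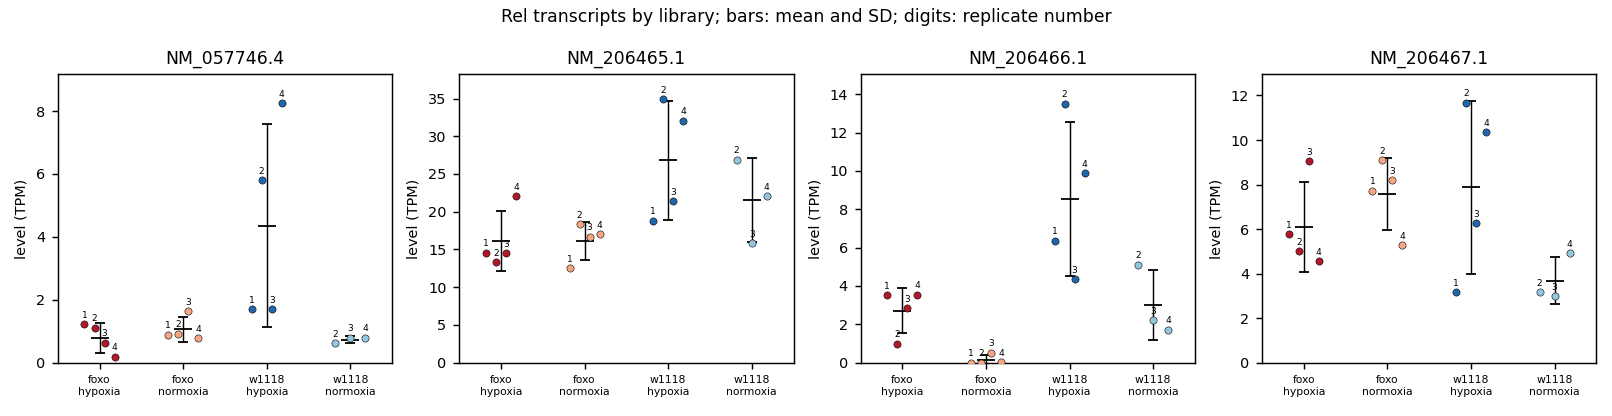
Level in TPM (y axis) of the 4 *Rel* transcripts in every library, by group, with replicate numbers beside the points and bars for the mean and SD. NM_206466.1 is near 0 in foxo normoxia (at most 0.513 TPM) and 0.984 to 3.54 TPM in foxo hypoxia, and NM_057746.4 is highest in w1118 hypoxia (1.69 to 8.25 TPM).

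The genes whose levels followed *Rel* most closely over the 15 libraries, by the root mean square difference of log2(TPM + 1) centred on each gene's mean among 7011 genes averaging at least 10 TPM, were *AMPdeam* (0.131), *Atg8a* (0.157) and *Phm* (0.161). The same value for *Rel* against a flat level was 0.466. For *pirk* they were *CG34176* (0.158), *atilla* (0.186) and *CG31087* (0.196), against 0.369 for a flat level. The libraries share their scaling, and this is a description with no test.

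Of 20 further IMD components, all tested, 3 rose with hypoxia in w1118 and 0 fell, and 1 rose and 0 fell in *foxo* mutants. Of all genes 16.2% were called up in w1118 and 9.34% in *foxo* mutants, so neither count lies above the background. *dnr1*, a negative regulator of the caspase Dredd, rose in both, to 28.9 ± 11.4 TPM in foxo hypoxia, against 8.48 ± 1.22 in foxo normoxia (log2 change 1.58, limma adjusted p 5.56e-04), and to 17.3 ± 6.15 TPM in w1118 hypoxia, against 4.81 ± 0.337 in w1118 normoxia (1.59, adjusted p 0.00111). The others that rose in w1118 were *Diap2*, a ubiquitin ligase of the pathway (0.50, adjusted p 0.0144), and the deubiquitinase *trbd* (0.64, adjusted p 0.0464). None of the 20 differed between the genotypes by limma in either condition, with 2 at an unadjusted p under 0.05 in normoxia and 3 in hypoxia.

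Of 24 further Toll components tested, 6 rose and 5 fell in *foxo* mutants, and 5 rose and 5 fell in w1118, where of all genes 9.34% rose and 13.5% fell in *foxo* mutants and 16.2% rose and 9.84% fell in w1118. Between the genotypes 0 were higher and 2 lower in *foxo* mutants in normoxia, where 5.52% and 3.14% of all genes were. In hypoxia 5 were higher and 4 lower, where 7.65% and 9.42% of all genes were. The 3 with the smallest p in both genotypes were *ndl*, *pip* and *wbl*, which act in the follicle cells of the ovary to set the dorsoventral axis of the embryo. *ndl* had 0.527 ± 0.172 TPM in foxo hypoxia, against 8.21 ± 2.81 in foxo normoxia, and 0.256 ± 0.115 in w1118 hypoxia, against 12.9 ± 5.59 in w1118 normoxia. The hypoxia changes differed between genotypes for 3 components, named here after their values were seen, all above 0, where 1.07% of all genes were called above 0. These were the recognition proteins *PGRP-SA* (difference 1.38, limma adjusted p 0.0409) and *PGRP-SD* (2.72, 0.0169) and *SPE*, the protease that cuts Spatzle (1.78, 0.0078). *SPE* rose by 0.96 in *foxo* mutants (adjusted p 0.00529) and fell by 0.82 in w1118 (adjusted p 0.0218).

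Of the Toll receptor family beside *Tl*, 3 of 7 genes were tested. *18w* fell in both genotypes (-0.72, limma adjusted p 0.0173, in *foxo* mutants and -0.74, adjusted p 0.0208, in w1118) and *Tehao* fell in *foxo* mutants (-0.74, adjusted p 0.00284). In w1118 *Tehao* was not called, with 2.17 TPM in hypoxia against 1.48 in normoxia. Of all genes 13.5% fell in *foxo* mutants and 9.84% in w1118. The difference between the hypoxia changes was called below 0 for 1 of the 3, where 1.55% of all genes were. Against w1118, 1 was higher in *foxo* mutants in normoxia and 1 lower in hypoxia, where 5.52% and 9.42% of all genes were.

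Beside the small changes of the 10 genes, the peptide genes downstream changed widely. Of all genes, 9.34% rose and 13.5% fell with hypoxia in *foxo* mutants, and 16.2% rose and 9.84% fell in w1118. Against w1118, 5.52% of all genes were higher and 3.14% lower in *foxo* mutants in normoxia, and 7.65% and 9.42% in hypoxia. Of 14 antimicrobial peptide genes 12 rose with hypoxia in *foxo* mutants and 10 in w1118, and 0 fell in either, with median log2 changes of 1.96 and 2.05. *AttA*, an attacin, had 58.3 ± 21.7 TPM in foxo hypoxia, against 2.31 ± 0.236 in foxo normoxia, and 43.6 ± 13.2 TPM in w1118 hypoxia, against 1.43 ± 0.441 in w1118 normoxia. Between the genotypes 6 of the 14 were lower in *foxo* mutants in normoxia and 6 in hypoxia, and 0 were higher in either, with median log2 differences of -0.46 and -0.96. *Dro*, which encodes drosocin, had 82.6 ± 21.0 TPM in foxo hypoxia, against 235 ± 134 in w1118 hypoxia (-1.38, limma adjusted p 0.00704). *Mtk*, which encodes metchnikowin, had 56.7 ± 6.67 TPM in foxo normoxia, against 606 ± 206 in w1118 normoxia (-3.34, limma adjusted p 4.91e-05). The Toll target *Drs* had a change of 0.02 in *foxo* mutants (adjusted p 0.96) and -0.06 in w1118 (adjusted p 0.831), with 1034 ± 123 TPM in foxo hypoxia, against 1035 ± 238 in foxo normoxia, and 994 ± 240 TPM in w1118 hypoxia, against 1018 ± 60.2 in w1118 normoxia. Of 12 Bomanins, short peptides induced by Toll, 11 rose in *foxo* mutants and 9 in w1118, and 0 fell. In *foxo* mutants 1 Bomanin was higher than in w1118 in normoxia and 0 lower, and 6 were higher and 1 lower in hypoxia. Of the 4 amidases that break down peptidoglycan and limit IMD signaling, 3 fell in each genotype, *PGRP-SC1a* to 21.5 ± 8.50 TPM in foxo hypoxia, against 244 ± 96.6 in foxo normoxia, and to 2.84 ± 1.70 TPM in w1118 hypoxia, against 39.4 ± 13.3 in w1118 normoxia. The same number, 3 of 4, were higher in *foxo* mutants than in w1118 in each condition. Of 7 midgut markers 6 fell in each genotype, while 1 rose in w1118 and 0 rose in *foxo* mutants. Their sums were 3121 to 4896 TPM in foxo hypoxia, against 9290 to 12740 in foxo normoxia, and 1259 to 2087 TPM in w1118 hypoxia, against 7259 to 9581 in w1118 normoxia. Of the 7, 4 were higher and 1 lower in *foxo* mutants than in w1118 in each condition, and the part of these markers in the amidase levels was not tested.

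Markers of cell types moved as well, where of all genes 9.34% rose and 13.5% fell in *foxo* mutants and 16.2% rose and 9.84% fell in w1118. Of 6 fat body markers tested, 5 fell with hypoxia in each genotype, and their summed level over 7 genes was 8521 to 11930 TPM in foxo hypoxia, against 19680 to 24170 in foxo normoxia, and 2307 to 4859 TPM in w1118 hypoxia, against 15330 to 28150 in w1118 normoxia. Of 6 hemocyte markers tested, 0 rose and 1 fell in *foxo* mutants and 0 changed in w1118 by limma, where 1 had an unadjusted p under 0.05, with sums over 8 genes of 42.1 to 91.2 TPM in foxo hypoxia, against 62.5 to 76.3 in foxo normoxia, and 65.5 to 122 TPM in w1118 hypoxia, against 74.7 to 91.8 in w1118 normoxia. Of 9 female germline markers 1 rose in each genotype and 0 fell, and of 12 eggshell markers 8 fell in *foxo* mutants and 9 in w1118. Of 6 muscle markers 1 fell in *foxo* mutants and 2 in w1118, and of 5 neuron markers 1 fell in *foxo* mutants and 0 in w1118, where 0 had an unadjusted p under 0.05. The part of these cell types in the levels of the 10 genes was not tested.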

How the data were processed

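Poly-A RNA libraries of 15 samples were made by the authors with a strand-keeping kit and sequenced, and reads were assigned to RefSeq transcripts of dm6 with kallisto. The submitters' processing notes name kallisto and sleuth, whose versions were not stated there. Per transcript, the authors deposited TPM, with library totals of 998679.4 to 999016. Of 34111 transcripts 138 had no value. The authors' tables of hypoxia-regulated genes (p-values, q-values, effect sizes and fold changes) hold their own comparisons and were not used.

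TPM were summed per gene. Those averaging at least 1 TPM in 1 or more groups (10288 genes, or 18362 transcripts) were tested with limma 3.58.1 in R 4.3.3 on log2(TPM + 1), with a trend in the variance and 1 model of the 4 groups, and p-values were adjusted by the Benjamini-Hochberg method over all of them. The pseudocount of 1 understates changes of low genes. Gene positions and exon overlaps came from an Ensembl annotation of the same assembly. The scripts were tested on simulated data.

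The members, gene lists and tests were chosen with earlier results of these data known. The rule for genes named in the text took every member and each of its transcripts that passed the filter, from each list up to 3 called genes with the smallest p in each hypoxia comparison and the 2 highest in level, *foxo*, and the 3 genes most like *Rel* and *pirk*. Replicates were independent groups of 5 flies. Same-numbered normoxia and hypoxia libraries correlated in their residuals at 0.142, 0.374 and 0.177 in w1118, which were treated as pairs in an alternative chosen after seeing the data, but at 0.2, -0.071, 0.139 and 0.331 in *foxo* mutants, which were not. Differently numbered ones ran from -0.284 to 0.161 in w1118 and from -0.569 to 0.395 in *foxo* mutants, so that the values overlap in both. Alternatives changed the filter, pseudocount, scaling, libraries fitted, replicate block, a covariate for the length slope of each library, or the test, or left out 1 library. The length slope, the fit of only the libraries compared and the aggregated test gave results for genes alone, not for single transcripts.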

Additional observations from a re-analysis of the deposited data

Results flagged for a closer look

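In 123 groups of 4 libraries, 8 had a library far from the other 3 by Dixon's criterion, which chance gives in about 1 of 20 groups. Among gene totals these were *Myd88* in foxo normoxia, where replicate 2 had 31.0 TPM, and *dl* in foxo normoxia, where replicate 1 had 21.0 TPM. Among transcripts, foxo hypoxia replicate 4 stood above the others for NM_001104472.2 of *spz* (7.44 TPM), NM_170312.2 of *spz* (11.9 TPM), NM_165218.3 of *dl* (5.84 TPM) and NM_206465.1 of *Rel* (22.1 TPM). In foxo normoxia replicate 3 stood above the others for 2 *Rel* transcripts, NM_057746.4 (1.64 TPM) and NM_206466.1 (0.513 TPM). The hypoxia change of the *Myd88* transcript NM_136635.3 differed between the genotypes by -1.28 on the log2 scale (limma adjusted p 0.0423).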

How the results depend on the processing

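The rise of *imd* in *foxo* mutants held under all 25 alternatives, and no called value changed sign. For hypoxia in w1118, in place of 0 genes called up there was 1 without a filter, with a pseudocount of 0.1 or with a library total that leaves out eggshell and ribosomal protein genes, 2 with the replicate block or with the block within w1118, and 5 with aggregated transcript p-values. In *foxo* mutants, in place of 1 up and 0 down, there were 4 and 1 after median-of-ratios scaling and 6 and 1 with the length slope. Aggregation called 1 gene below 0 for the difference. Up and down by aggregation follow the sign of the gene total, as the aggregated p-values carry no direction. For *foxo* against w1118 in normoxia, in place of 0 and 0, 1 up and 1 down were called after median-of-ratios scaling, 1 and 4 with the length slope, 2 and 1 by aggregation, 1 up with the reduced total and 2 up with only the libraries compared. In hypoxia, in place of 0 up and 1 down, 1 was up after median-of-ratios scaling or with the length slope, and 0 were down without a filter or with only the libraries compared and 3 by aggregation. Leaving out 1 library gave 0 to 4 genes up in w1118, 0 to 1 down in *foxo* mutants, 0 to 1 up between genotypes in normoxia and 0 to 3 down in hypoxia. Over all genes these counts were 875 to 2504, 1096 to 1787, 306 to 666 and 679 to 3527. The other alternatives gave, over all genes, 1324 to 2432 up in w1118 and 726 to 1791 up in *foxo* mutants. They gave 394 to 1353 up and 226 to 1354 down between genotypes in normoxia, and 536 to 1250 up and 478 to 1405 down in hypoxia. Among transcripts, 4 up in w1118 became 2 at a mean of 5 TPM, 8 with the replicate block and 10 with the block within w1118 (2 to 11 leaving out 1 library), and 1 down became 2 after median-of-ratios scaling (0 to 1). In *foxo* mutants 3 up became 7 after that scaling (2 to 3). For the difference, median-of-ratios scaling gave 1 above 0, and 1 below 0 became 0 without a filter or with the replicate block and 3 with the block within w1118 (0 to 3). Between genotypes in normoxia, 2 up became 0 without a filter, at a mean of 5 TPM or with the replicate block and 1 at either other pseudocount (0 to 3), and 1 down became 0 at a pseudocount of 5 and 3 after median-of-ratios scaling (0 to 1). In hypoxia, 2 up became 1 without a filter, at a mean of 5 TPM or with the replicate block (1 to 2), and 3 down gave 1 to 9. Counts over all transcripts were not made for these alternatives, so the transcript counts have no background beside them. The replicate block changed no call of a gene other than *Tl* and *Rel* for hypoxia in w1118. The causes were not tested. TPM hold no read number, so no counting error could be given, and changes of transcripts near 1 TPM move with the pseudocount.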
